A study of Homo sapiens with 9 samples.

Results

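The microRNAs (miRNAs) of unactivated Jurkat cells were described from the 3 small RNA libraries collected at 0 h, which are 3 of the 9 small RNA libraries of the study. Their members were chosen by label alone: every library whose title names 0 h entered. The libraries of activated cells entered no value given here, except where the closing section chose precursor rows on all 9 libraries. Jurkat clone E6-1 (ATCC TIB-152) is an established human T lymphoblast line, so all 3 libraries come from descendants of 1 clone of leukaemic cells and not from blood T cells. The study activated these cells with antibodies to CD3 and CD28, and the 0 h cells were its controls, grown without either antibody in RPMI medium with serum and antibiotics. The submitters describe the 3 samples as biological replicates, but the labels do not name separate cultures or days, so the spread between them may be partly technical.

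A miRNA is a short RNA that guides Argonaute proteins to messenger RNAs, mainly by pairing through its seed, bases 2 to 8 counted from the 5′ end. It is cut from a hairpin precursor whose arms are named 5p and 3p; usually only the guide arm is retained in Argonaute, and the opposite arm, the passenger, is degraded. miRNAs with the same seed form a family with overlapping targets, and miRNAs that lie close together in the genome are often cut from 1 shared transcript, a polycistron.

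Read counts were compared within and between the 3 libraries as counts per 1000000 counts (CPM), with each mature name entered once. A few pairs of names had the same counts in every library, such as miR-548aa and miR-548t-3p (147, 109 and 81). The same reads may therefore stand under both names of such a pair, and numbers of names include both. A miRNA was taken as detected when it had 10 CPM or more in each library. Replicates 1, 2 and 3 held 9764886, 8513983 and 4481559 counts on this basis. A count of 3, used as the floor for a miRNA with no reads, was 0.307, 0.352 and 0.669 CPM in the same order. Such limits and the intervals given below cover counting error only, because PCR copies of a read cannot be told from separate molecules. No test was made: there is 1 group, and a difference between miRNAs is described by its size, its SD and whether it had the same direction in all 3 libraries. Reads are not scaled to length, and how evenly RNAs of different sequence were captured was not tested, so an order of levels is an order of read counts.

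The sequences of the miRNAs that carry most of the reads are shown first, since membership of a family is read from them. They are RefSeq mature sequences (assembly GRCh38.p14), and the seed is in capitals. The let-7 family, whose members restrain growth-promoting messages such as those of RAS and MYC, shares the seed GAGGUAG:
let-7a-5p: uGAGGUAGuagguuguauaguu
let-7f-5p: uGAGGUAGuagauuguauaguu
let-7g-5p: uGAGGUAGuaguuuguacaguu
let-7b-5p: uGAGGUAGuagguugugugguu
let-7i-5p: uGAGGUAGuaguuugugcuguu
let-7d-5p: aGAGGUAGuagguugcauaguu
miR-98-5p: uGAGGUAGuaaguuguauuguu
let-7e-5p: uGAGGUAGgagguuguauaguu
let-7c-5p: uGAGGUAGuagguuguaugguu

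Outside the seed these members differ from let-7a-5p at few positions, counted from the 5′ end with the base of let-7a-5p first. let-7f-5p differs by G12A alone, let-7c-5p by A19G alone and let-7e-5p by U9G alone. let-7g-5p carries G12U and U18C, let-7b-5p carries A17G and A19G, let-7d-5p carries U1A and U16C, and miR-98-5p carries G11A and A19U. let-7i-5p is the most distant, with G12U, A17G, U18C and A19U. How reads with a sequencing error were assigned among such near copies is not given in the sources used here, so the levels of members that differ by 1 base are less certain than the family total.

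The remaining abundant families are shown by their main members, again with the seed in capitals. They are miR-191, the miR-15/miR-16 family that represses BCL2 and cyclins, the growth-promoting miR-17/miR-20/miR-93/miR-106 family, the miR-181 family that tunes T cell receptor signalling, and the miR-26 family:
miR-191-5p: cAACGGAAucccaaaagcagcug
miR-16-5p: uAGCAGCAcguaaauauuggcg
miR-15a-5p: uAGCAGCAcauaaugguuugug
miR-15b-5p: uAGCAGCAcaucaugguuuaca
miR-93-5p: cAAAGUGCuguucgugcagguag
miR-17-5p: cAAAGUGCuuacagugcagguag
miR-20a-5p: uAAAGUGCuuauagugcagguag
miR-20b-5p: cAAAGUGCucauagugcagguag
miR-106b-5p: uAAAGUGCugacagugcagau
miR-106a-5p: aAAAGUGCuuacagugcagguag
miR-181a-5p: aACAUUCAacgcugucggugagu
miR-181b-5p: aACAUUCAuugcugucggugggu
miR-26a-5p: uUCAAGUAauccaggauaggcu
miR-26b-5p: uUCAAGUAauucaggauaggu

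miR-106a-5p differs from miR-17-5p by C1A alone, outside the seed, so the assignment of reads between this pair of loci on chromosomes X and 13 rests on the first base.

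A small number of miRNAs held most of the reads. Of 2654 mature names in the table, 846 had a read in any of the 3 libraries, 447 in all 3, 157 in 2 and 242 in 1. The other 1808 (68.1%) had 0 counts in all 3. The detected miRNAs numbered 252 (9.50% of all names) and held 99.85% of the counts, 128 reached 100 CPM in each library, 51 reached 1000 CPM and 16 reached 10000 CPM. The first 6 miRNAs held 54.7% of the reads, the first 27 held 90% and the first 110 held 99%. The 10 most abundant held 67.5%, 69.4% and 69.1% of the counts of replicates 1, 2 and 3, or 68.7% ± 1.05 (SD, n = 3). The first 30 held 91.3% ± 0.383.

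**Figure D1:**
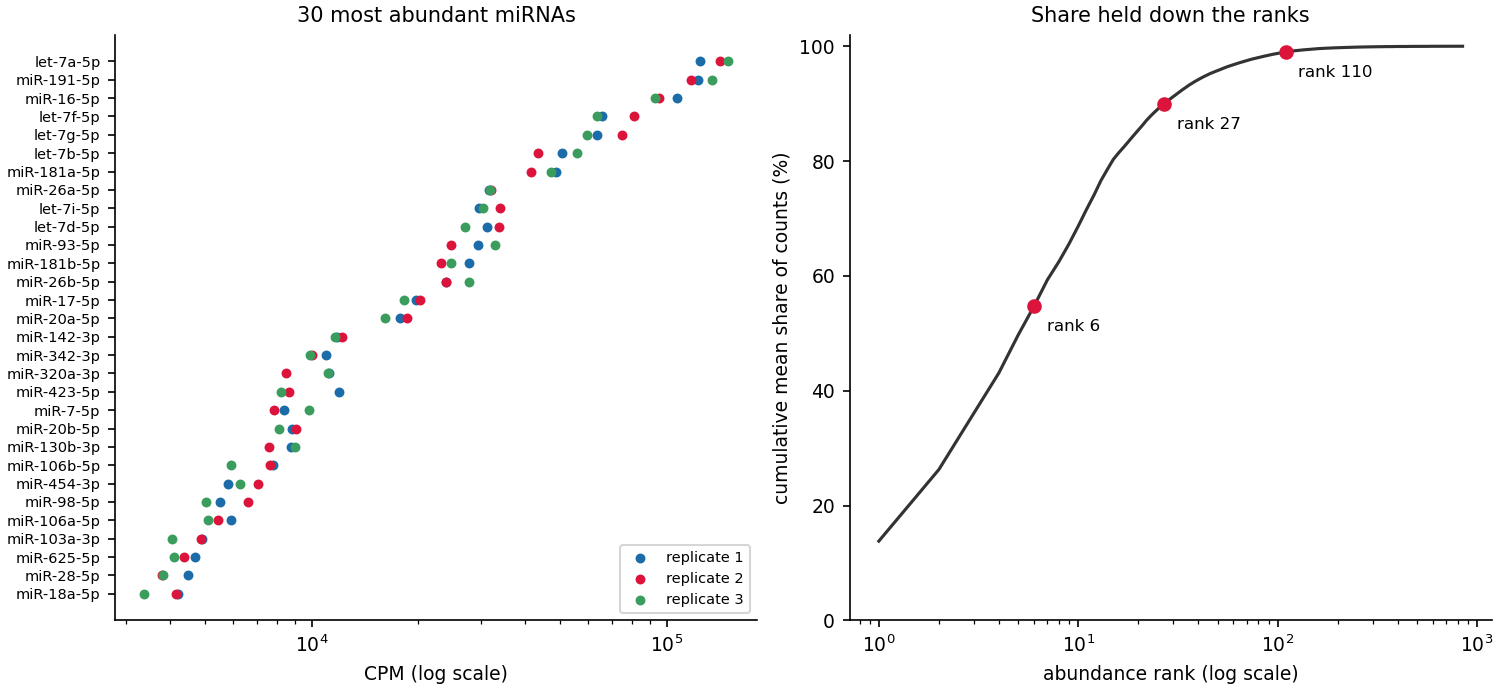
Left, CPM (log scale) of the 30 most abundant miRNAs, with 1 point for each of the 3 libraries at 0 h. Right, cumulative mean share of counts (%) against abundance rank (log scale), with ranks 6, 27 and 110 marked; the curve passes 50% at rank 6, 90% at rank 27 and 99% at rank 110.

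let-7a-5p was first in each library, with 123727, 141660 and 148708 CPM in replicates 1, 2 and 3. miR-191-5p, which is made from an intron of DALRD3, followed, with 122549, 117125 and 134090 CPM. miR-16-5p, a brake on the cell cycle, came next with 106842, 95215 and 92940 CPM. These 3 held 36.1% ± 1.28 of the counts, and their order was the same in each library. In replicate 1, however, let-7a-5p and miR-191-5p were nearly level, at 12.37% (95% Wilson interval 12.35 to 12.39) and 12.25% of the counts.

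The next positions were also fixed across libraries. let-7f-5p had 65839, 80806 and 63470 CPM, and let-7g-5p had 63841, 74947 and 59510 CPM. let-7b-5p had 50868, 43374 and 55969 CPM. miR-181a-5p, which lowers the activation threshold of the T cell receptor by repressing several phosphatases, had 48794, 41478 and 47232 CPM. Each of these miRNAs kept its rank, 4 to 7, in all 3 libraries, although over the libraries the ranges of let-7f-5p and let-7g-5p overlapped, as did those of let-7b-5p and miR-181a-5p. let-7f-5p and let-7g-5p moved together, both highest in replicate 2, whereas let-7b-5p was lowest there.

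From rank 8 on, neighbours changed places between libraries. miR-26a-5p had 31506, 31982 and 31811 CPM, the smallest relative spread among the first 15 at a coefficient of variation of 0.759%. let-7i-5p had 29600, 34035 and 30344 CPM, and let-7d-5p had 31160, 33668 and 27089 CPM. The ranges of these 3 miRNAs overlapped, and none of the neighbouring pairs kept its order in all 3 libraries.

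miR-93-5p, made from an intron of the replication gene MCM7, had 29469, 24744 and 32755 CPM. miR-181b-5p had 27764, 23153 and 24770 CPM, and miR-26b-5p had 23877, 23951 and 27761 CPM. The first of these was above miR-181b-5p in each library, while miR-181b-5p was above miR-26b-5p in 1 library only. miR-17-5p had 19725, 20219 and 18183 CPM, and miR-20a-5p from the same transcript had 17702, 18609 and 16111 CPM. miR-17-5p was thus 1.11-fold (SD 0.0214, n = 3) above miR-20a-5p, a small step that held in every library.

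Ranks 16 to 30 were taken by miR-142-3p, miR-342-3p, miR-320a-3p, miR-423-5p, miR-7-5p, miR-20b-5p, miR-130b-3p, miR-106b-5p, miR-454-3p, miR-98-5p, miR-106a-5p, miR-103a-3p, miR-625-5p, miR-28-5p and miR-18a-5p. Their means ran from 11877 ± 287 CPM for miR-142-3p, a miRNA of blood cells, to 3909 ± 461 CPM for miR-18a-5p. In this stretch the order was loose: miR-423-5p was at rank 16 in replicate 1 and 21 in replicate 3. Of the 29 neighbouring pairs in the first 30, 15 kept their order in all 3 libraries. Membership was firmer, since 29 miRNAs were among the first 30 of every library and 31 were among the first 30 of any.

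Replicate spread, and not counting error, set the precision of these levels. The widest 95% interval of a share among the first 30 reached only 0.0329 percentage points to each side. The median coefficient of variation between libraries was 8.61% for the 18 miRNAs with a mean of 10000 CPM or more, 11.5% for 38 between 1000 and 10000, 15.1% for 82 between 100 and 1000 and 26.5% for 144 between 10 and 100 CPM. Counting error alone would give a median of 7.22% in the last class.

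No miRNA with a mean of 100 CPM or more was 3-fold apart between its highest and lowest library (0 of 138). In contrast, 114 of the 555 miRNAs with a mean of 10 counts or more (20.5%) had 0 counts in 1 or 2 libraries. The largest spreads on the log2 scale above 100 CPM were those of miR-222-5p, miR-339-3p, miR-4449, miR-340-5p, miR-128-3p, miR-200c-3p, miR-15a-5p and miR-501-3p. miR-340-5p, for example, had 184, 291 and 145 CPM, highest in replicate 2, and miR-222-5p had 142, 65.1 and 121 CPM, lowest there.

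In replicates 1 and 2 these deviations went with GC content, in opposite directions. Among 225 detected miRNAs with a sequence, the deviation of replicate 1 from the mean of the 3 libraries had a Pearson correlation with GC content of 0.336, that of replicate 2 of -0.296 and that of replicate 3 of 0.0344. For each miRNA the 3 deviations cancel out by construction, so a trend in 1 library must be balanced in the others. The points share libraries and base composition, and the part of GC content in any difference between miRNAs was not tested. Between pairs of libraries the log2 levels of detected miRNAs correlated at 0.987 to 0.992, and the chi-square per degree of freedom of their counts was 90.7 or more, so no library repeats another.

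Grouped by seed, the reads were held by a handful of families. Sequences were matched for 2365 of the 2654 names (89.1%), which held 97.6% of the counts and formed 1912 seed families, of which 177 had a detected member. The let-7 family held 37.1%, 41.6% and 39.1% of the counts of replicates 1, 2 and 3, or 39.3% ± 2.24. miR-191 followed with 12.5% ± 0.866, the miR-15/miR-16 family with 10.0% ± 0.767, the miR-17/miR-20/miR-93/miR-106 family with 8.71% ± 0.203, the miR-181 family with 7.26% ± 0.618 and the miR-26 family with 5.70% ± 0.228. These 6 families held 83.4% of the reads. The next 4 among names with a sequence were small: the miR-130b/miR-454 family at 1.51%, miR-142-3p at 1.19%, miR-342-3p at 1.03% and miR-423-5p at 0.960%. miR-320a-3p, at 1.12%, 0.848% and 1.11% of the counts of replicates 1, 2 and 3 (mean 1.03%), has no entry in the sequence table and entered no family, so it is not in this order.

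**Figure D2:**
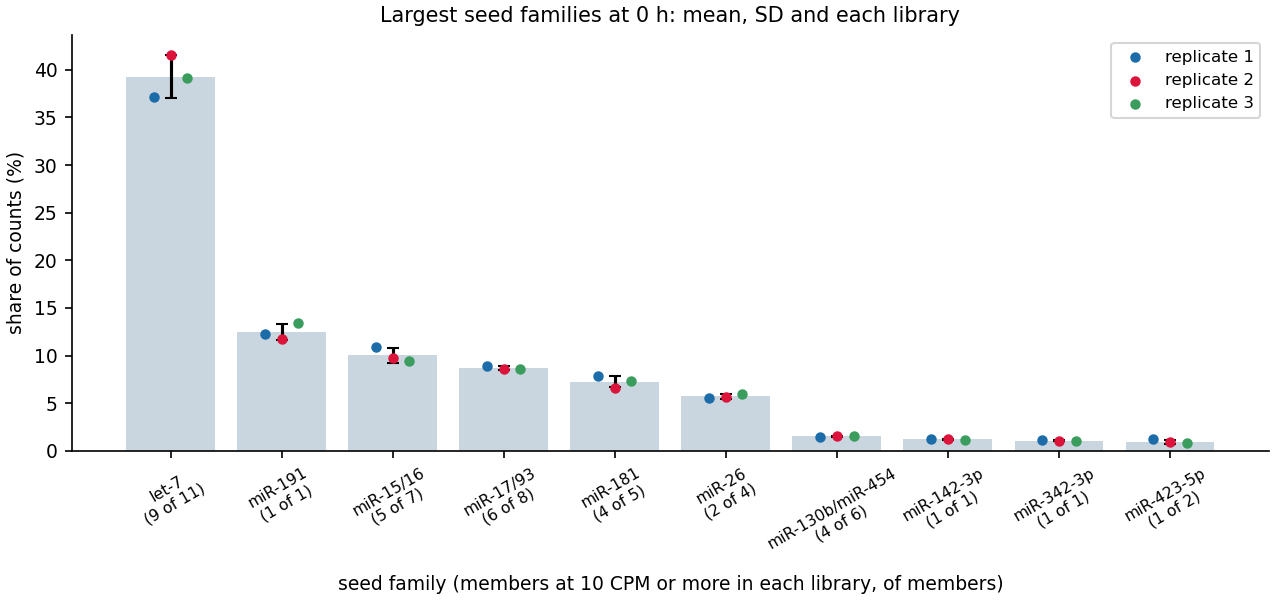
Share of counts (%) of the 10 largest seed families at 0 h among names with a sequence, which leaves out miR-320a-3p (1.03%); bars are means over 3 libraries, error bars are SD and points are single libraries, with the number of detected members below each name. The let-7 bar, at 39.3%, is over 3 times as high as that of miR-191 at 12.5%.

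Families differed in how evenly their members shared the reads. In the let-7 family 9 of 11 members were detected. let-7a-5p made up 35.1% ± 2.52 of it, let-7f-5p 17.8%, let-7g-5p 16.8%, let-7b-5p 12.8%, let-7i-5p 7.97%, let-7d-5p 7.80% and miR-98-5p 1.45%. The last 2 detected members were far lower, with 541, 691 and 783 CPM for let-7e-5p and 298, 327 and 414 CPM for let-7c-5p. Both lie beside members of the miR-99 and miR-125 families in the genome, and both differ by 1 base from the far more abundant let-7a-5p, which makes their levels the least certain of the family.

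The miR-15/miR-16 family was carried by miR-16-5p alone, at 98.2% ± 0.433 of its reads. miR-15b-5p had 1460, 1510 and 924 CPM and miR-15a-5p had 340, 450 and 245 CPM. miR-424-5p had a mean of 165 CPM, miR-195-5p 25.2 CPM and miR-497-5p 2.13 CPM. The family thus had 5 detected members of 7, but its members other than miR-16-5p together gave less than 2% of its reads.

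In the miR-17/miR-20/miR-93/miR-106 family the reads were spread over 6 members from 3 clusters. miR-93-5p gave 33.3% ± 4.58 of the family, miR-17-5p 22.3%, miR-20a-5p 20.1%, miR-20b-5p 9.93%, miR-106b-5p 8.18% and miR-106a-5p 6.30%. The other two members, miR-519d-3p and miR-526b-3p of the primate cluster on chromosome 19, had 0 counts in all 3 libraries. The family total had an SD of 0.203 percentage points, smaller than that of the less abundant miR-181 family.

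miR-181a-5p and miR-181b-5p gave 63.2% and 34.8% of the miR-181 family. miR-181d-5p had a mean of 962 ± 117 CPM and miR-181c-5p of 554 ± 55.03 CPM, and miR-181d-5p was above miR-181c-5p in each library by 1.73-fold (SD 0.0909). miR-26a-5p and miR-26b-5p split their family 55.8% to 44.2%. miR-130b-3p and miR-454-3p gave 55.9% and 42.2% of theirs, miR-301a-3p 1.71%. miR-130b-3p was above miR-454-3p in each library, with 8748, 7604 and 9007 against 5809, 7053 and 6286 CPM.

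Many of the abundant miRNAs are encoded side by side. With precursors on 1 strand joined when at most 10 kb apart (GENCODE 29, GRCh38, 1850 of 1917 precursors placed), 97 clusters were found, of which 39 had a detected member and 18 had no count at all. miRNAs with a locus in a cluster held 75.2% ± 0.837 of the counts. This share cannot be split among loci where a mature miRNA has several: let-7a-5p is encoded on chromosomes 9, 11 and 22, and each cluster was credited with all of its reads.

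By that count the cluster of let-7a-1, let-7f-1 and let-7d (chr9:94175957-94178920, in an intron of a long non-coding RNA) held 23.9% ± 1.77 of the reads, but only 3.06% came from mature miRNAs encoded nowhere else. The cluster of let-7a-3 and let-7b (chr22:46112749-46113768, in MIRLET7BHG) held 18.8%, of which 5.01% was its own. For the pairs miR-15b/miR-16-2 on chromosome 3 and miR-15a/miR-16-1 on chromosome 13 the totals were 9.96% and 9.87%, and the reads of single-locus members only 0.131% and 0.0359%. The miR-191/miR-425 pair (chr3:49020148-49020709, in DALRD3) held 12.9% ± 0.920, all of it its own.

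Among clusters whose members are encoded mostly once, miR-17/miR-92a (chr13:91350605-91351391, MIR17HG) held 4.33% ± 0.287, with 10 of 12 arms detected. miR-106b/miR-25 (chr7:100093560-100094074, in MCM7) held 3.80% ± 0.314 and miR-106a/miR-363 (chrX:134169378-134170278) held 1.64% ± 0.107. The first of these relatives gave similar shares and the X-linked copy less, each with a member of the AAAGUGC seed family as its most abundant miRNA.

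Members of 1 cluster differed widely in level. In miR-17/miR-92a, miR-17-5p (19376 ± 1062 CPM) and miR-20a-5p were followed by miR-18a-5p at 3909 ± 461, miR-19b-3p at 690 ± 16.3, miR-19a-3p at 569 ± 4.03 and miR-92a-3p at 473 ± 98.2 CPM. The place of miR-19b-3p depends on its row: the value is from the mir-19b-2 row on chromosome X, with 15720 counts over the 3 libraries, whereas the row of mir-19b-1, the precursor in this cluster, has 2519 counts, below the 12951 of miR-19a-3p and the 11210 of miR-92a-3p. miR-17-5p exceeded miR-92a-3p 40.3-, 36.0- and 49.5-fold in replicates 1, 2 and 3, and miR-19a-3p 34.5-, 35.8- and 31.9-fold. miR-19 is the member best known for driving lymphoma in mice. The miR-25/miR-92a seed family as a whole, AUUGCAC, held 0.272% of the reads.

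The seeds of these low members are shown to mark that they belong to families other than that of miR-17-5p:
miR-18a-5p: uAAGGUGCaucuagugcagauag
miR-19a-3p: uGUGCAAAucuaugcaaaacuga
miR-19b-3p: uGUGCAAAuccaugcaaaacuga
miR-92a-3p: uAUUGCACuugucccggccugu

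The same held in related clusters. In miR-106b/miR-25, miR-93-5p exceeded miR-106b-5p 4.18-fold (SD 1.20) and miR-25-3p, with 1044, 1457 and 1132 CPM, 24.7-fold (SD 6.71). In miR-106a/miR-363, miR-20b-5p exceeded miR-106a-5p 1.58-fold (SD 0.0870) and miR-363-3p 12.2-fold (SD 1.56), and miR-18b-5p had 158 ± 34.9 CPM. Members with the AAAGUGC seed were the highest in all 3 clusters and in all 3 libraries.

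Steeper differences were seen in pairs. miR-16-5p exceeded miR-15b-5p 79.0-fold (SD 19.5) and miR-15a-5p 302-fold (SD 84.5). miR-191-5p exceeded miR-425-3p, the higher arm of its neighbour, 53.5-fold (SD 9.26) and miR-425-5p 80.5-fold (SD 8.27). miR-130b-3p exceeded miR-301b-3p 283-fold (SD 8.65), with 30.01, 27.7 and 31.7 CPM for the latter. The small SD of the last ratio shows that the difference was repeated closely in each library.

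Clusters with smaller internal differences included miR-23a/miR-27a/miR-24-2 on chromosome 19, where miR-27a-3p, which limits effector cytokines in T cells, had 3460, 3266 and 3294 CPM. It exceeded miR-23a-3p 3.53-fold (SD 0.212) and miR-24-3p 7.35-fold (SD 0.902). Its relative miR-27b-3p from chromosome 9 was 9.97-fold (SD 2.04) lower. In miR-221/miR-222, miR-222-3p at 1099 ± 88.4 CPM exceeded miR-221-3p, at 646 ± 97.6 CPM, 1.71-fold (SD 0.125).

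Among the other listed clusters above 1000 CPM, miR-29b-2/c summed to 3428 ± 406 CPM against 1626 ± 299 CPM for miR-29b-1/a, and miR-29c-3p, at 2726 ± 293 CPM, exceeded miR-29a-3p, at 1256 ± 214 CPM, 2.19-fold (SD 0.163). miR-30e/c-1 summed to 1904 CPM, miR-532/miR-660 to 1895 CPM, miR-181c/d to 1603 CPM, miR-30b/d to 1365 CPM, miR-374b/miR-421 to 1231 CPM and miR-23b/miR-27b/miR-24-1 to 1140 CPM. The miR-532/miR-660 cluster (chrX:50003148-50014683) had 11 of 16 arms detected, none above 1000 CPM. Its highest arms were miR-660-5p with 517 ± 52.7 CPM, miR-532-5p with 409 ± 52.8 CPM, miR-501-3p with 283 ± 83.7 CPM and miR-362-5p with 227 ± 18.7 CPM, a flatter profile than that of the miR-17 relatives. By chromosome, X carried 41 detected names of 168 (24.4%), the highest percentage of any chromosome, against 9.50% of all names. A name with several loci was placed on 1 chromosome only, that of its highest row. let-7f-5p, encoded on X and on chromosome 9, thus stands under X.

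**Figure D3:**
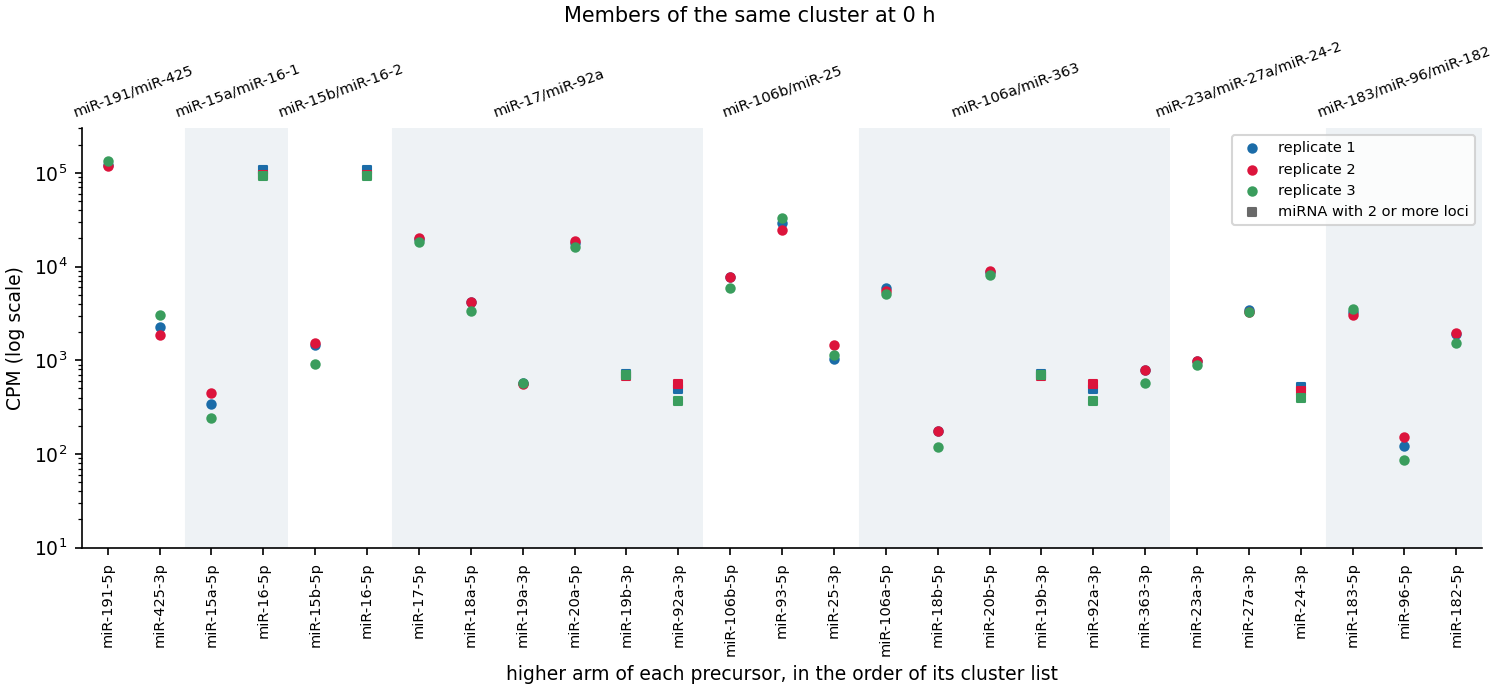
CPM (log scale) of the higher arm of each precursor in 8 clusters at 0 h, with 1 point for each of 3 libraries and squares for miRNAs that have 2 or more loci and appear under each. Neighbours in a cluster lie up to more than 100-fold apart, as for miR-16-5p and miR-15a-5p, while the 3 libraries lie close together.

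The arms of each precursor were compared where both arms are named, each is encoded at 1 locus and their sum was 100 counts or more in each library, which left 125 of 805 precursors. The 5p arm was higher in all 3 libraries in 66 precursors (52.8%), the 3p arm in 52 (41.6%), and in 7 the order differed between libraries. Most precursors were strongly one-sided: the median difference between arms was 6.20 on the log2 scale, or 73.4-fold, with 0.5 added to each count. In 57 precursors the arms were 100-fold or more apart, in 89 they were 10-fold or more apart and in 17 they were within 2-fold. The lower arm had 0 counts in all 3 libraries in 18.

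**Figure D4:**
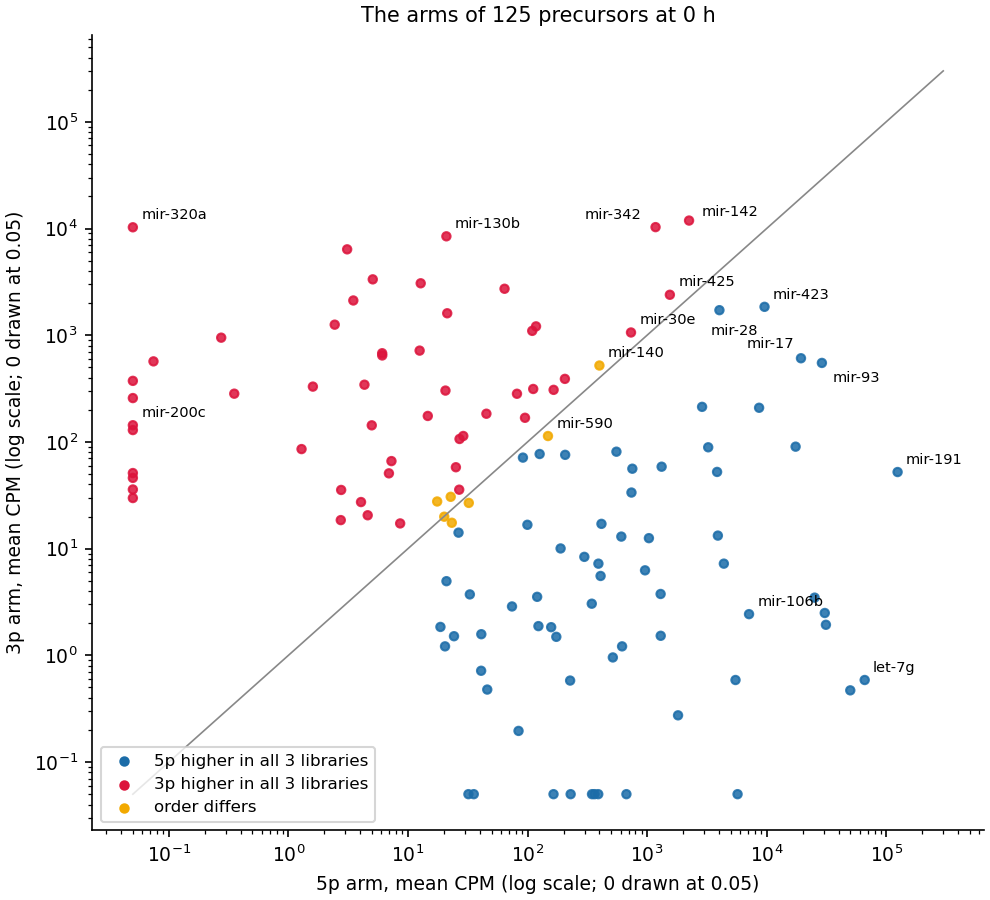
Mean CPM of the 3p arm against the 5p arm for 125 precursors at 0 h (both axes log scale, 0 drawn at 0.05), coloured by which arm was higher in the 3 libraries; the line marks equal levels. Most precursors lie far from the line, with 66 below it and 52 above it in every library, and 7 near it.

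Almost no reads of the let-7 precursors came from the 3p arm. All 11 named 3p arms of let-7 and miR-98 together had 56, 77 and 33 counts in replicates 1, 2 and 3, against 3626486, 3542748 and 1753720 counts for the 9 5p arms, and 5 of the 11 had 0 counts in every library. let-7g-3p had 0, 15 and 0 counts and let-7b-3p 12 in all. let-7i-3p had 26 counts in all, each of them in replicate 3, and let-7d-3p had 61. The other precursors with the largest differences towards 5p were mir-98, mir-106a, mir-26b and mir-182. miR-98-5p was at least 44178-fold higher than miR-98-3p, which had no reads, with the floor of 3 counts taken over the group.

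Towards 3p the largest differences were those of mir-320a, mir-19a, mir-23a, mir-95, mir-301a, mir-27a, mir-454 and mir-200c. miR-320a-3p, whose hairpin bypasses Drosha, had 11203, 8475 and 11135 CPM and no read from the 5p arm, so it was at least 77154-fold higher. For miR-95-3p, miR-301a-3p and miR-200c-3p the 5p arm also had no reads, and the differences were at least 2828-fold, 2028-fold and 1148-fold. miR-454-3p exceeded miR-454-5p 2059-fold. miR-27a-3p had a stable level, but its 5p arm had 0, 29 and 53 counts, so the size of that difference varied between libraries while its direction did not.

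Precursors known from T cells and blood ranged from mildly to strongly one-sided. miR-142-5p and miR-142-3p, both functional in blood cells, had 2198, 2403 and 2134 CPM and 11824, 12186 and 11619 CPM, a 5.29-fold difference towards 3p with an SD of 0.05 on the log2 scale. miR-342-5p had 1201, 1261 and 1070 CPM against 11005, 10003 and 9914 CPM for miR-342-3p, an 8.75-fold difference. For mir-150 the 5p arm was 24.3-fold higher and for mir-21 54.2-fold, and for mir-132 the 3p arm was 111-fold higher. The sizes for mir-21 and mir-132 varied between libraries: miR-21-3p had 24, 65 and 52 counts and miR-132-5p had 6, 116 and 18. miR-146a-3p and miR-146b-3p had no reads, so their 5p arms were at least 2971-fold and 1752-fold higher. Of the broadly expressed precursors, miR-423-5p exceeded miR-423-3p 5.20-fold and miR-28-5p exceeded miR-28-3p 2.35-fold. miR-191-5p, by contrast, exceeded its 3p arm (52.2 ± 13.02 CPM) 2385-fold. The arms with both strands in appreciable amounts carry unrelated seeds:
miR-142-5p: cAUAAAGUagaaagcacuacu
miR-142-3p: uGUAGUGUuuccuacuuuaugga
miR-342-5p: aGGGGUGCuaucugugauuga
miR-342-3p: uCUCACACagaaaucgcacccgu

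The most even precursors above 100 CPM were mir-1304, mir-590, mir-140, mir-30e, mir-425, mir-500a, mir-331 and mir-766. miR-30e-5p had 706, 842 and 653 CPM and miR-30e-3p had 950, 912 and 1321 CPM, so the 3p arm was higher in each library although the ratio ranged from 1.08- to 2.02-fold. In mir-140 (chr16:69933081-69933180, in an intron of WWP2) the means were 399 ± 88.4 CPM for 5p and 520 ± 83.4 CPM for 3p, and the 5p arm was the higher in replicate 2 only. In mir-590 (chr7:74191198-74191294, in an intron of EIF4H) the 5p arm was higher in replicates 1 and 2 and level with the 3p arm in replicate 3. In these precursors the arms cannot be ranked at this precision:
miR-140-5p: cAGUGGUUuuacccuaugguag
miR-140-3p: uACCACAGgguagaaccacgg
miR-590-5p: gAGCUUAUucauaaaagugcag
miR-590-3p: uAAUUUUAuguauaagcuagu

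mir-425, next to mir-191 in the same intron, had 1604, 1559 and 1489 CPM from its 5p arm and 2284, 1867 and 3032 CPM from its 3p arm. The 3p arm was thus the higher in each library, by 1.54-fold over the group, while its neighbour gave almost only the 5p arm.

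Members of 1 seed family differed in how much of the opposite arm was seen. In the AAAGUGC family the lower arm made up 3.05% of the reads of mir-17, 2.36% of mir-20b, 1.86% of mir-93, 0.514% of mir-20a, 0.0341% of mir-106b and 0.0107% of mir-106a. miR-17-3p had 698, 518 and 610 CPM, and miR-106a-3p had reads in 1 library only. In the same way the lower arm made up 2.30% of the reads of mir-29c and 0.194% of mir-29a. For mir-181c it was 12.8% and for mir-181d 0.647%. mir-30e was nearly even, whereas miR-30d-5p exceeded miR-30d-3p 853-fold.

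The higher arm began with U more often than the lower arm. Both arms had a sequence in 105 of the 125 precursors. Of these, 51 higher arms (48.6%) and 20 lower arms (19.05%) began with U, while 24 (22.9%) and 31 (29.5%) began with A, 19 and 41 with C and 11 and 13 with G. In 55 precursors only 1 arm began with U, and that arm was the higher in 43. The higher arm had more A or U among its first 4 bases in 57 precursors, as many in 26 and fewer in 22. Among precursors with arms 10-fold or more apart the counts were 43, 20 and 12, and among those within 2-fold they were 5, 2 and 6. As background, the MID domain of human Argonaute proteins favours a 5′ U or A, of which only U was more frequent on the higher arm here, and the strand whose 5′ end pairs more weakly is usually retained. Over all names with a sequence, those that begin with U were 36.8% of names and held 64.5% of the reads of these names. Those that begin with A were 27.6% of names and held 14.7%, those with C were 21.8% and held 20.6%, and those with G were 13.8% and held 0.272%. Single miRNAs weigh heavily on these shares, which are taken over the 97.6% of counts under names with a sequence. let-7a-5p, which begins with U, held 13.8% of all counts, and miR-191-5p, which begins with C, held 12.5%.

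Opposite arms also tell paralogous loci apart where the guide cannot. miR-181a-5p is encoded on chromosomes 1 and 9, and its opposite arms have different names. miR-181a-3p, from mir-181a-1 (chr1:198859044-198859153), had 920, 741 and 821 CPM, and miR-181a-2-3p, from mir-181a-2 (chr9:124692442-124692551), had 170, 139 and 110 CPM. The chromosome 1 locus thus gave 85.6% ± 2.25 of the opposite-arm reads in these libraries. This is a share of passenger strands and gives the share of guides only if both hairpins release and keep their passengers alike, which was not tested.

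For miR-16-5p the opposite arms were close to even and few: miR-16-1-3p had 70, 98 and 71 counts and miR-16-2-3p 138, 65 and 48, or 51.2% ± 15.2 from mir-16-1. For miR-92a-3p, 80.7% ± 1.997 of 130 CPM came from mir-92a-1 in the miR-17/miR-92a cluster. For miR-128-3p, 84.6% ± 11.3 of 99.3 CPM came from mir-128-2, in an intron of ARPP21. miR-7-1-3p, from the locus in HNRNPK, had 34, 117 and 31 counts, and miR-7-2-3p had 0 in each library. For let-7a-5p and let-7f-5p the opposite arms summed to under 1 CPM, so the loci could not be told apart. Those of miR-26a-5p, miR-181b-5p, miR-103a-3p, miR-196a-5p and miR-19b-3p were also under 10 CPM.

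miR-29b and miR-30c stood out among these, since their opposite arms were near or above the guide. miR-29b-2-5p had 291, 299 and 225 CPM against 380, 444 and 274 CPM for miR-29b-3p, which both loci encode, while miR-29b-1-5p had 0, 21 and 0 counts. miR-30c-1-3p had 79.4, 56.7 and 85.9 CPM, above miR-30c-5p with 21.8, 53.7 and 30.4 CPM in every library, and miR-30c-2-3p had 0 counts. miR-29b-3p, miR-30c-5p, miR-92a-3p and miR-128-3p are not among the 10 most abundant multi-locus miRNAs and were chosen after their values were seen. The arms of mir-29b-2 are:
miR-29b-2-5p: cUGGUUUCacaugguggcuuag
miR-29b-3p: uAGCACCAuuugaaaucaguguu

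For 21 of 31 multi-locus miRNAs with 200 or more counts the rows of their precursors agreed within 5%, as for let-7a-5p and miR-16-5p. They did not for miR-19b-3p, whose lower row had 16.02% of the higher, nor for miR-181b-5p, whose lower row had 81.4%.

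The labelled cell type was set beside miRNAs known from T cells and blood. Of 30 listed, 26 were detected, against 9.50% of all names and 32.5% of names numbered up to 500. The list held 17.8% ± 0.593 of the reads. Many of its members, such as miR-26a-5p, miR-17-5p, miR-20a-5p, miR-24-3p and miR-29a-3p, are also expressed in most other tissues, so the count alone does not mark a lineage. miR-142-3p and miR-142-5p, restricted to blood lineages, were at ranks 16 and 39, and miR-342-3p was at rank 17. miR-150-5p, which is abundant in mature resting lymphocytes and targets MYB, had 446, 419 and 382 CPM, 24.9-fold (SD 1.04) below miR-342-3p. miR-146a-5p, a feedback inhibitor of NF-kB signalling, had 403, 381 and 388 CPM, and miR-146b-5p had 206, 268 and 214 CPM. Of the 7 markers taken as defining, 6 were thus detected in each library, and miR-155-5p was not.

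miR-155-5p, which is induced by antigen receptor signalling, had 0.922, 2.47 and 8.70 CPM and was under the detection level in each library. miR-31-5p, which is silenced in adult T cell leukaemia, had 0 counts in all 3. miR-212-3p and miR-214-3p had reads in replicate 1 only, with 18 and 33 counts, although miR-132-3p from the miR-212 cluster had 777, 645 and 613 CPM. miR-21-5p had 391, 465 and 320 CPM, miR-128-3p had 444, 602 and 299 CPM, and miR-10a-5p was the lowest detected member at 35.5 ± 13.3 CPM. The remaining detected members are given with their families and clusters above.

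miRNAs typical of other tissues were represented by some members only. The 13 lists for other tissues hold 81 entries, 3 of which are also on the T cell and blood list; 39 (48.1%) had 0 counts in all 3 libraries, 25 had some reads without being detected and 17 (21.0%) were detected. Over all names 68.1% were at 0 and 9.50% were detected. Among names numbered up to 500, where most listed miRNAs fall, 42.1% were at 0 and 32.5% were detected. Together the 81 listed entries held 1.60% ± 0.0792 of the reads. In 7 of the 13 lists no member was detected: liver, muscle, pancreas, erythroid cells, pluripotent cells, testis and placenta.

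**Figure D5:**
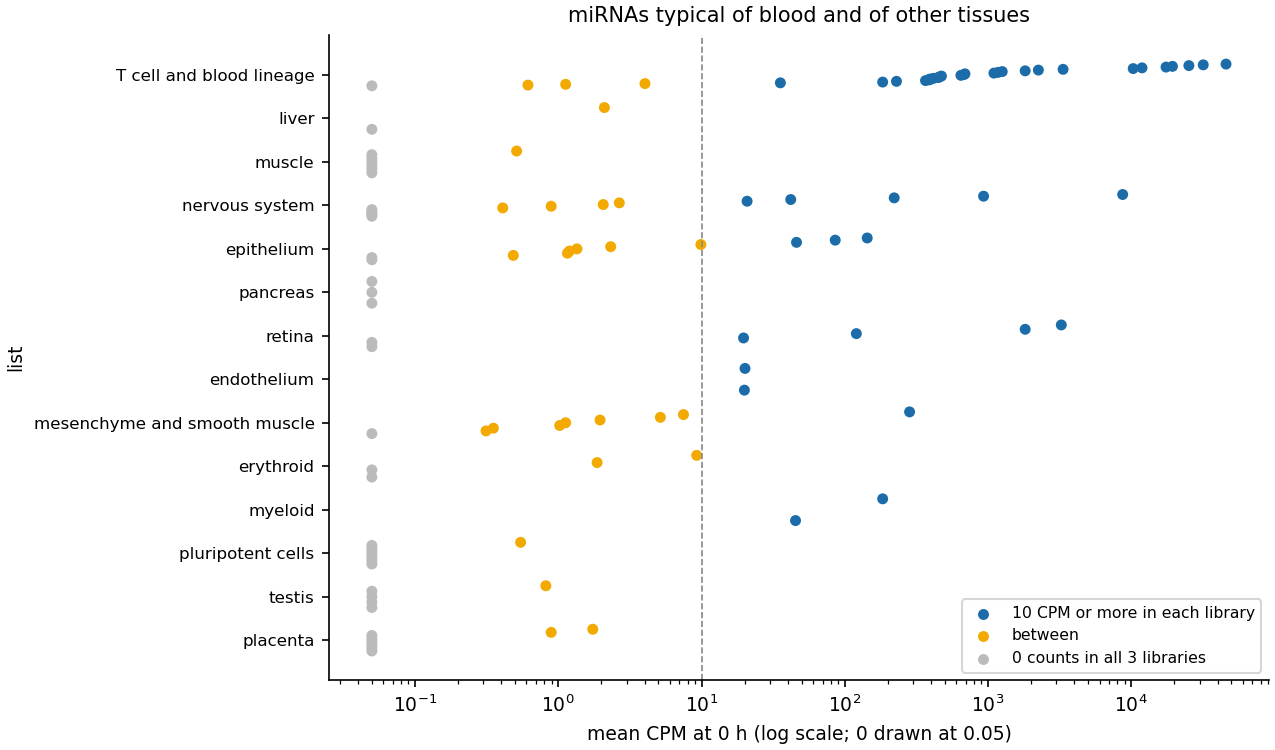
Mean CPM at 0 h (log scale, 0 drawn at 0.05) of miRNAs typical of T cells and blood and of 13 other tissues; each point is 1 miRNA, blue where detected in each library, grey at 0 counts in all 3 and orange between, and the dashed line is at 10 CPM. Of the T cell and blood list 26 of 30 are blue and of the other lists 17 of 81 (21.0%), where 9.50% of all names in the table are detected.

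Defining markers at 0 counts in every library were miR-1-3p, miR-133a-3p and miR-206 of muscle, miR-124-3p of neurons and miR-205-5p of squamous epithelium. So were miR-144-3p of erythroid cells and miR-367-3p and miR-371a-5p of pluripotent cells. The other defining marker of pluripotent cells, miR-302a-3p, had 16, 0 and 0 counts. Also at 0, but not among the defining markers, were miR-302b-3p of pluripotent cells and miR-217-5p of the pancreas. The liver miRNA miR-122-5p had 0, 27 and 14 counts, and miR-451a of red cells had 6.35, 8.69 and 12.7 CPM. Another erythroid marker, miR-486-5p, had 4, 29 and 8 counts. Of the mesenchymal markers, miR-143-3p had 103, 88 and 7 counts, miR-145-5p had 0, 8 and 0, and miR-199a-3p had 36, 32 and 36. These markers had reads but did not reach 10 CPM in each library. Other defining markers were detected in each library. miR-126-3p of endothelium had 19.2, 22.3 and 18.3 CPM, and miR-223-3p of myeloid cells had 169, 203 and 179 CPM. miR-9-5p, the other defining marker of neurons, had a mean of 221 CPM. The other defining markers of epithelium, miR-200c-3p and miR-141-3p, had means of 143 and 85.7 CPM.

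A few miRNAs usually named for other tissues were abundant. miR-7-5p, best known from neurons and endocrine cells, had 8388, 7863 and 9856 CPM at rank 20. The sensory-organ cluster miR-183/miR-96/miR-182 (chr7:129770383-129775014) was present with miR-183-5p at 3234, 3022 and 3481 CPM, miR-182-5p at 1928, 1977 and 1543 CPM and miR-96-5p at 123, 153 and 85.7 CPM. miR-182-5p is also known from activated T cells, where it represses FOXO1, and is on both lists. In each library the order was miR-183-5p, then miR-182-5p, then miR-96-5p.

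The neuronal miR-9 gave more of its 3p arm, 864, 1006 and 921 CPM, than of its 5p arm, 213, 251 and 200 CPM, a ratio of 4.23 (SD 0.332). miR-153-3p had 42.0 ± 10.5 CPM and miR-138-5p 20.8 ± 2.09 CPM. In the miR-200 family of epithelium, the cluster on chromosome 12 was detected, with miR-200c-3p at 138, 195 and 97.1 CPM and miR-141-3p at 84.1, 82.9 and 90.2 CPM. The cluster of miR-200b, miR-200a and miR-429 on chromosome 1 summed to only 1.68 ± 1.37 CPM. The other detected members were miR-22-3p (283 ± 57.0 CPM), miR-203a-3p (46.0 CPM), miR-223-5p (45.3 CPM), miR-126-5p (20.1 CPM) and miR-184 (19.7 CPM).

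Whole clusters were without reads, where 68.1% of all names in the table had 0 counts in all 3 libraries. On chromosome 14, the imprinted miRNA clusters mir-493 to mir-136 (chr14:100869060-100884783) and mir-379 to mir-656 (chr14:101022066-101066801) hold 50 precursors and 89 mature names, and all 89 had 0 counts in each library. miR-342-3p, encoded less than 1 Mb away on the same chromosome in EVL, was at rank 17. On chromosome 19, the primate cluster from mir-512-1 to mir-519a-2 (chr19:53666679-53762430, 46 precursors) had 61 of 67 names at 0 and none detected. Each of the other 6 had reads in 1 library only, from 5 counts of miR-524-3p to 51 of miR-512-3p. The neighbouring miR-371/miR-373 cluster and the pancreatic miR-216/miR-217 group had 0 counts for all 6 names each. A count of 0 allows up to 0.669 CPM in the shallowest library.

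Detection fell with the number in the miRNA's name, which follows the order of registration. Of names numbered up to 500, let-7 included, 173 of 532 were detected (32.5%), and the class held 98.25% ± 0.132 of the reads. From there to 1000, 48 of 426 were detected and the class held 1.19%. Above 3000, 15 of 1495 were detected (1.00%), the class held 0.169%, and 1178 names had 0 counts. Entries that match tRNA, snoRNA, other structured RNAs or repeats held 0.141% ± 0.0248, with miR-1246 at 728 ± 191 CPM the highest.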

How the data were processed

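Small RNA of 3 libraries at 0 h was analysed. The authors deposited raw counts per precursor and mature miRNA (2883 rows, 1917 precursors); no value was normalised before deposit. Per the submitters' processing notes, the build was GRCh38.p13 and DESeq2 was among the tools, with aligner, counter and handling of reads that match several loci not given in the sources used here. The protocol in the labels names a Direct-zol column kit and, for mRNA libraries, RealSeq kits; size selection is not stated. The 165 mature miRNAs with several precursor rows repeat most of their counts (35.4 to 36.7% of all row counts), so each was taken once, from the row with the highest total over the 3 libraries, and CPM used the resulting totals. All rows summed to 15121491, 13417648 and 7083813 counts.

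Seeds came from RefSeq, positions and genes from GENCODE 29 (GRCh38), with clusters at a distance of up to 10 kb. Arm ratios were log2 of the 5p over the 3p count, 0.5 added to each, for single-locus precursors with at least 100 counts in each library. The text names the 30 most abundant miRNAs, members above 1% of the 10 largest families, members of listed polycistrons above 1000 CPM, the 8 most even and 8 most one-sided precursors each way, the 10 most abundant multi-locus miRNAs, list members, and the 8 with the largest spread. The subject, lists and rules were chosen with earlier results of these data known. Python 3.11.15, pandas 2.3.3, edgeR 4.0.16 for TMM factors and matplotlib 3.10.9 were used; the arm comparison was tested on simulated data. Alternatives changed how precursor rows are combined or chosen, scaling, thresholds, seed length, cluster distance, pseudocount, entries matching structured RNAs, and the libraries used.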

Additional observations from a re-analysis of the deposited data

How the results depend on the processing

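No paired analysis was possible because the values come from 1 group and no test. Summing the precursor rows raised the share of the 10 most abundant miRNAs to 77.9%, of the let-7 family to 47.0% and of the largest cluster to 37.1%, since repeated rows are then counted again, and moved 78 of 111 other values. Detected miRNAs numbered 410 at 1 CPM, 128 at 100 CPM and 447 above 0. The 5p arm was the higher by mean in 57.1% of precursors at 30 counts, 58.1% at 1000 and 53.9% with multi-locus arms, against 55.2%. The median arm difference was 6.84 on the log2 scale at 1000 counts, 6.77 with multi-locus arms, 5.95 with a pseudocount of 1 and 5.46 with 5. A pseudocount of 5 moved 9 of 24 named arm ratios, a pseudocount of 1 moved 4, and the mean of rows moved 1 of 111 values. TMM or median-of-ratios scaling, the row chosen on all 9 libraries and removal of structured RNA entries moved no mean beyond its SD, but scaling widened SDs: that of the first 10 rose from 1.05 to 5.28 points with TMM and 4.16 with median of ratios, and that of let-7 from 2.24 to 3.85 and 3.14. With each library left out in turn, the ranges were 257 to 267 detected, 1868 to 1905 at 0, 68.5 to 69.3% for the first 10, 27 to 28 miRNAs for 90%, 38.1 to 40.4% for let-7, 23.0 to 24.8% for the largest cluster, 54.8 to 56.8% for 5p, 5.85 to 6.27 for the arm difference and 50.6 to 56.8% of tissue markers at 0, the highest without replicate 1. Depth limits a count of 0 to the floors given.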
